A study of Mus musculus with 20 samples.

Results

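The regions described here are stretches of mouse liver chromatin at which a peak of H3K27ac was called in both Ppara KO livers and in no liver of the other genotypes. They were chosen by position alone: an interval of the authors' H3K27ac consensus list counted when it was overlapped, by 1 base or more, by peaks of both Ppara KO libraries and by peaks of none of the 6 other libraries. The rule found 290 of 65776 consensus intervals. It uses the H3K27ac calls themselves, so the H3K27ac values below describe the regions and test nothing.

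Livers came from C57BL/6 males aged 9 weeks and fasted for 24 hours, and every group shared that strain, sex, age and fast. The groups were WT, Cpt2 L-/- (a liver knockout of Cpt2, called Cpt2 KO), Ppara -/- (a knockout that the double-knockout labels call whole-body, called Ppara KO) and Cpt2 L-/- ; Ppara -/- (both deletions, called DKO). What drove the deletion of Cpt2 in liver was not given in the sources used here. H3K27ac and H3K4me1 were profiled by chromatin immunoprecipitation and sequencing (ChIP-seq) in 2 livers of each genotype, H3K9ac in 1 WT and 1 Cpt2 KO liver.

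Ppara is a nuclear receptor that binds fatty acids and, in the fasted liver, switches on genes for fatty acid uptake, oxidation and ketone body synthesis. Cpt2 is the mitochondrial enzyme that lets long-chain fatty acids enter oxidation, so fatty acids that could bind Ppara accumulate where it is missing. H3K27ac, acetylation of lysine 27 of histone H3, marks active enhancers and promoters; H3K4me1 marks enhancers whether active or only primed; and H3K9ac marks active promoters above all. A region with H3K27ac in Ppara KO and not in DKO is, by its calls, a gain on loss of Ppara that is not called when Cpt2 is lost as well.

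Libraries had 44454 to 48929 H3K27ac peaks and 61189 to 72151 H3K4me1 peaks, and their depth in reads is unknown. The smallest H3K27ac peak was 205 and 210 bases wide in the Ppara KO libraries, 221 and 220 in Cpt2 KO, 206 and 198 in WT and 217 and 223 in DKO, so in this technical measure Ppara KO lay with WT. In H3K4me1, Ppara KO replicate 1 and Cpt2 KO replicate 2 stood with WT in smallest width (200 and 196 bases against 199 and 199) and in bases covered (53.3 and 53.5 Mb against 52.5 and 53.2). Ppara KO replicate 2 and Cpt2 KO replicate 1, at 216 and 211 bases and 42.7 and 41.4 Mb, stood apart from them, as did DKO at 210 and 221 bases and 38.8 and 46.0 Mb. The H3K4me1 shares and limma log2 differences are therefore also given without the former 2 libraries. Presence of calls at Ppara was too sparse to check the labels, but H3K27ac folds there separated the Ppara-intact from the Ppara-null libraries at some intervals. At 1 ending at 85744699 they were 13.7 to 18.6 in the 4 intact and 7.91 to 8.69 in the 4 null libraries. At 1 ending at 85748290 they were 12.9 to 19.9 and 5.0 to 9.86. At the widest, ending at 85780875, they overlapped, at 18.2 to 29.3 and 16.9 to 23.2. H3K4me1 folds at Ppara are not given here. Of 26 H3K27ac intervals within 5000 bases of the gene, 1 was called in the 4 Ppara-intact libraries only and 1 in the 4 Ppara-null libraries only (0.725% and 0.632% of all intervals), and of 36 H3K4me1 intervals 2 and 0 were (0.604% and 0.385%). In the check of the tissue, 18 of 22 hepatocyte marker genes had an H3K27ac interval called in all 8 libraries within 1000 bases of the gene body, against 0 of 16 lymphocyte and neutrophil markers, 7 of 17 Kupffer and macrophage markers, 12 of 14 endothelial, 3 of 16 stellate and fibroblast and 2 of 12 cholangiocyte markers. The hepatocyte and endothelial shares lay close together, so this measure does not single out hepatocytes. In whole liver, fewer cells of a type and less of a mark per cell cannot be told apart.

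Only 2 of the regions reach into the stretch before a listed gene start, and the sequences of these stretches are shown for that reason. They belong to Clmn, which encodes the membrane protein calmin, and Cpeb3, which encodes an RNA-binding regulator of translation. The 250 bases before each start are given 5′ to 3′ on the minus strand, from RefSeq promoters of GRCm38.p6 (the assembly that mm10 names), for chr12:104865077-104865326 and chr19:37176064-37176313. Capitals mark the bases inside the H3K27ac region, 77 of 250 for Clmn and 135 of 250 for Cpeb3.
Clmn: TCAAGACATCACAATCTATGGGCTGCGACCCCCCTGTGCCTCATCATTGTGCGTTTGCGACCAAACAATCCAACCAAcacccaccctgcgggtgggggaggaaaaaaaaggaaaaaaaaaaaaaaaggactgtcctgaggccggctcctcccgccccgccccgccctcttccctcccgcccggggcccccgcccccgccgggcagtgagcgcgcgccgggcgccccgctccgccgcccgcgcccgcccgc
Cpeb3: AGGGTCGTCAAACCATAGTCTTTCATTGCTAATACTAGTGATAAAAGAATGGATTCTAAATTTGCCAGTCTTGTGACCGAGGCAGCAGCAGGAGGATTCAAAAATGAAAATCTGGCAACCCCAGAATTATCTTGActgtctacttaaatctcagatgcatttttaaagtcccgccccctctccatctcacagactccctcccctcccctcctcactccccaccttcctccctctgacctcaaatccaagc
In both, the region covered the end far from the start and stopped before the start itself. On the side of the start, an interval called in all 8 libraries ended inside the printed Cpeb3 bases, at 37176091. At Clmn such an interval ended at 104865015, short of the printed bases. A promoter without H3K27ac in the other genotypes is therefore not shown. The remaining region that overlapped a promoter window, at Kiss1, the kisspeptin gene, lay wholly after the start.

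Those letters were searched on both strands, overlapping matches counted, for the nuclear receptor half-site AGGTCA, the direct repeat DR1 that Ppara binds as a dimer with Rxr (a pair of half-sites with 1 base between), the E-box CACGTG, the cAMP response element TGACGTCA, the AP-1 site TGANTCA, the GC box GGGCGG, the inverted or direct box CCAAT, and the TATA element TATAAA. The Clmn sequence held 7 GC box matches and no match to the other 7 motifs, and none of the 7 lay in capitals. The Cpeb3 sequence held 1 GC box and 1 half-site, both outside the capitals. Of 32851 RefSeq promoters of the same length, 32.7% held a GC box and 14.0% a half-site, while the direct repeat was in 0.0335%. A match is a description of letters, not a bound site.

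The regions are a small share of what was called in Ppara KO. Of 27094 intervals called in both Ppara KO libraries, 18281 were called in all 6 others as well and 290 (1.07%) in none of them. Between these, 516 were called in 1 other library, 1300 in 2, 1206 in 3, 2746 in 4 and 2755 in 5. The gains of Ppara KO over WT were mostly shared with DKO: of 3297 intervals called in both Ppara KO and neither WT library, 2490 (75.5%) were called in both DKO libraries and 441 (13.4%) in exactly 1. A further 76 (2.31%) were called in a Cpt2 KO library but in neither DKO library, and the regions are the remaining 290 (8.80%). The mirror classes, called in both libraries of a genotype and in none of the other 6, were larger: 2167 only in WT, 1202 only in Cpt2 KO and 1485 only in DKO.

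**Figure D1:**
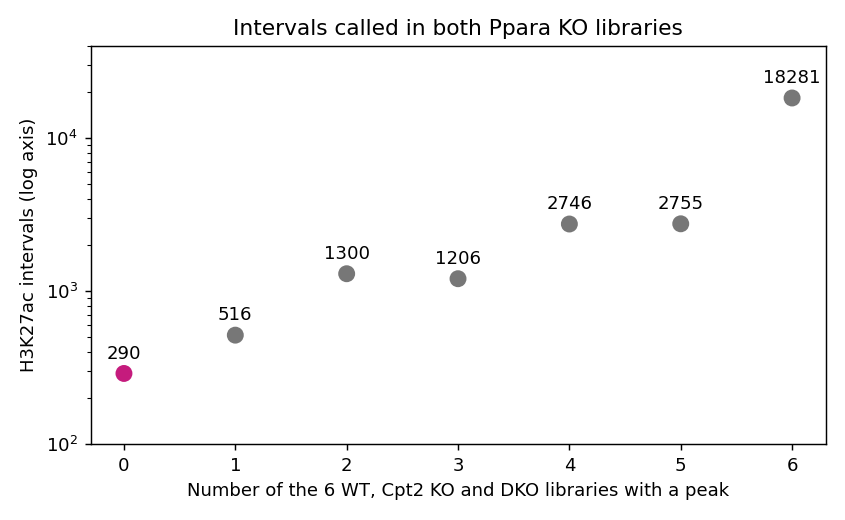
H3K27ac intervals called in both Ppara KO libraries (y axis, number, log scale), by how many of the 6 WT, Cpt2 KO and DKO libraries also had a peak (x axis). The count falls from 18281 at 6 libraries to 290 at 0, the regions described here, and 516 lie at 1.

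Every one of the 6 other libraries kept some intervals out of the rule on its own. The 1 other library was WT replicate 1 for 156 of the 516, WT replicate 2 for 85, DKO replicate 2 for 125, DKO replicate 1 for 97, Cpt2 KO replicate 1 for 37 and Cpt2 KO replicate 2 for 16. Just outside the rule, an interval in Tmem29 (chromosome X, 150438252 to 150438935) had folds of 12.5 and 10.3 in Ppara KO and 10.9 in DKO replicate 1, with no call in DKO replicate 2. An interval in Snd1 (chromosome 6, 28683455 to 28684089) had 11.04 and 10.8 in Ppara KO and 7.80 in DKO replicate 1, and an interval in Fmn2 (chromosome 1, 174741046 to 174741580) had 10.1 and 10.2 in Ppara KO and 9.95 in WT replicate 1. All 3 had higher Ppara KO folds, on average, than any region inside the rule. Just inside, with the lowest folds of all, lay a second region near Mup21 (chromosome 4, 62156775 to 62157040) at 3.63 and 3.50, a region near Mn1 (chromosome 5, 111507604 to 111507977) at 3.57 and 3.22, and a region in Chd7 (chromosome 4, 8736125 to 8736515) at 2.63 and 3.57.

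The regions were weak and narrow peaks. Fold, here and below, is the authors' enrichment of a peak over input. Over the regions its median was 5.43 in Ppara KO replicate 1 (range 2.63 to 10.3) and 5.39 in replicate 2 (3.00 to 9.42), below the medians of all peaks in the same libraries, 6.75 and 7.17. In 214 of 290 regions the fold was below the library's median in both replicates, and 22.1% and 31.9% of the peaks in the 2 lists were higher than the highest region. Neither replicate carried the regions alone: 147 were higher in replicate 1, 140 in replicate 2 and 3 equal, with 259 within 1.5 times of each other. The caller's −log10 q ran from 5.32 to 35.0, and 126 regions (43.4%) reached 10 in both libraries, against 56.6% of the regions only in WT, 75.1% of those only in Cpt2 KO, 70.4% of those only in DKO and 97.3% of intervals called in all 8. Median width was 405.5 bases (231 to 1837), against 409 for the regions only in DKO, 485.5 for those only in Cpt2 KO, 513 for those only in WT and 619 for all consensus intervals, so narrow peaks were shared by the mirror classes. It was 1534 for all intervals called in both Ppara KO libraries and 1981 for those called in all 8. A missing call in the other 6 libraries means that no peak passed the caller there; how much signal lay under these regions in WT, Cpt2 KO or DKO was not analysed here.

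**Figure D2:**
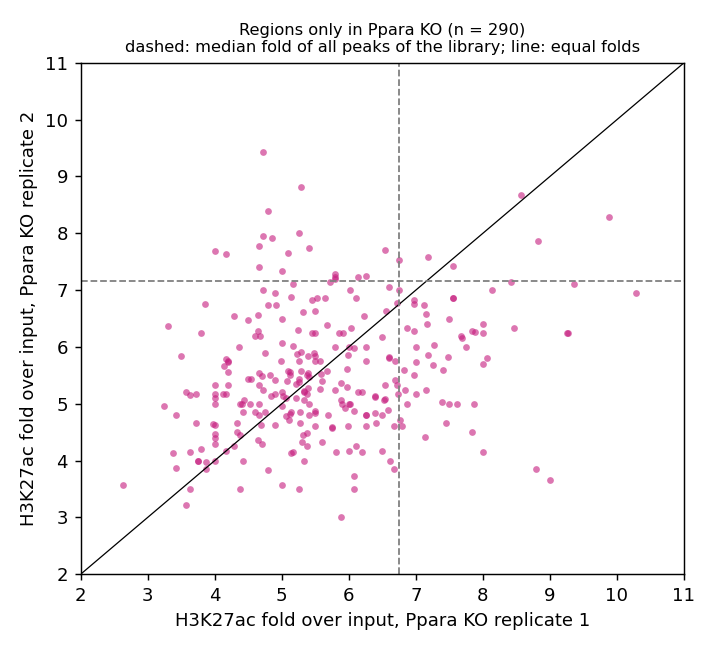
H3K27ac fold over input of each of the 290 regions in Ppara KO replicate 1 (x axis) and replicate 2 (y axis); the solid line marks equal folds and dashed lines the median fold of all peaks of each library, 6.75 and 7.17. Most points lie to the lower left of the dashed lines, where 214 regions are below both medians.

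Most regions lay close to a peak called in at least 1 liver of another genotype. The gap from a region to the nearest interval called in a library of another genotype had a median of 235 bases, was at most 250 bases for 149 regions (51.4%) and at most 1000 bases for 246 (84.8%). The nearest interval of these 246 was called in all 8 libraries for 107, in both Ppara KO libraries for 179 (72.8%) and in only 1 or 2 libraries for 49. Its median width was 1236.5 bases. An interval called in all 8 lay within 1000 bases of 135 regions (46.6%), against 43.0% of those only in WT, 6.82% only in Cpt2 KO and 6.46% only in DKO. In the mirror classes, 73.6% of the regions only in WT had an interval of another genotype within 1000 bases, 29.5% of those only in Cpt2 KO and 34.7% of those only in DKO, with median gaps of 365, 5130.5 and 3926 bases. By distance the regions thus lay with those of WT, as the Ppara KO libraries did in smallest peak width; the part of peak width in this was not tested. Only 14 regions (4.83%) were more than 10000 bases from an interval of another genotype.

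**Figure D3:**
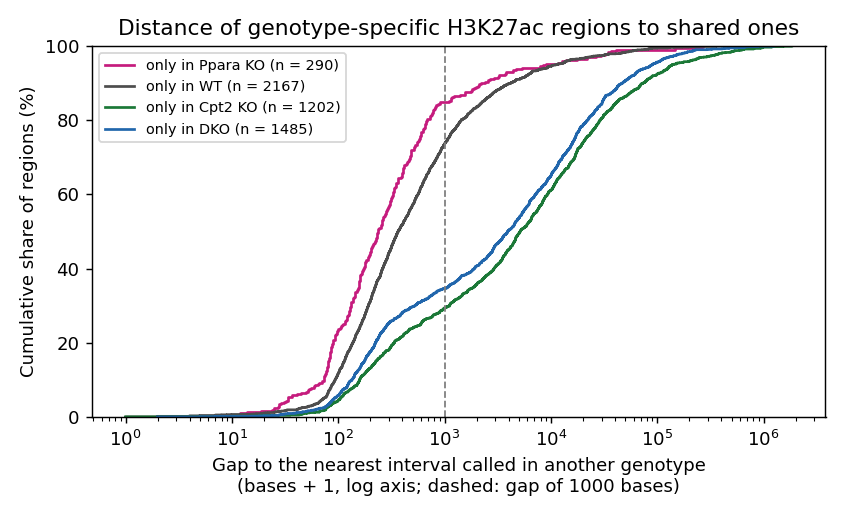
Cumulative share of regions (y axis, %) by the gap to the nearest H3K27ac interval called in a library of another genotype (x axis, bases plus 1, log scale), for regions only in Ppara KO, only in WT, only in Cpt2 KO and only in DKO. At the dashed line, a gap of 1000 bases, the curves stand at 84.8%, 73.6%, 29.5% and 34.7%.

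The neighbours themselves had somewhat higher H3K27ac in Ppara KO. Among the 18281 intervals called in all 8 libraries, 903 had their middle within 50000 bases of the middle of a region. Their median log2 difference, from centred folds, was 0.18 for Ppara KO minus WT (−0.03 over all 18281), 0.10 for Ppara KO minus DKO (−0.01) and 0.19 for Ppara KO minus the mean of the other 3 genotypes (−0.01). For the 145 with an edge within 1000 bases of a region the 3 medians were 0.37, 0.15 and 0.31, and 83.4% were higher in Ppara KO than the mean of the others, against 48.4% of all. These comparisons use the contrast that chose the regions and are given without a test.

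The region with the highest mean fold lay near Mup21, a gene of the major urinary proteins, which the male liver secretes to carry pheromones. At chromosome 4, 62157179 to 62157544 and 6520 bases from the gene body, it had folds of 9.88 and 8.28 in Ppara KO. The interval 81 bases away (62157626 to 62159521) was present in every library, at folds of 36.4 and 28.7 in Ppara KO, 25.8 and 19.5 in Cpt2 KO, 21.4 and 5.0 in WT and 14.3 and 19.05 in DKO. Both Ppara KO livers were above the 6 others there, and the WT livers differed from each other by more than any other pair. A region nearest to Mup11 (60680024 to 60680268, 17714 bases away) had 8.43 and 7.14 and no interval called in all 8 libraries within 815010 bases. Mup genes are near-identical copies, so reads of 1 copy may have been placed at another, and these positions are uncertain.

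Rad51b, a gene of homologous recombination, had 3 regions in a row inside its gene body on chromosome 12. The first (79533958 to 79534514) had folds of 8.57 and 8.67, the second (79534538 to 79535533) 6.86 and 6.33, and the last (79536093 to 79536345) 5.01 and 5.13. They continue outward from an interval of 4779 bases (79529099 to 79533877), 80 bases from the first, which every library had. Its folds were 19.03 and 24.0 in Ppara KO, 25.1 and 19.7 in Cpt2 KO, 26.1 and 17.9 in WT and 16.7 and 24.5 in DKO. The Ppara KO values of that shared interval fell inside the range of the others, unlike at Mup21, and folds fell with distance from it in both Ppara KO livers.

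Other regions of high fold lay in or near genes of varied function. Ranbp10, which encodes a Ran-binding protein, held the highest fold of any region in a single library (chromosome 8, 105796763 to 105797039), 10.3 in replicate 1 beside 6.96 in replicate 2. Tmcc2 (chromosome 1, 132368682 to 132369371) had 8.83 and 7.86. A region in Arid1a, a subunit of the SWI/SNF chromatin remodeller (chromosome 4, 133704759 to 133705164), had 9.36 and 7.11. Slc3a1, a subunit of the cystine and dibasic amino acid transporter, held a region (chromosome 17, 85039152 to 85039509) with 9.25 and 6.25. Its interval called in all 8 libraries, 467 bases away (85039977 to 85045750), separated the states of Cpt2 rather than Ppara KO from the rest, with 20.1 and 20.2 in Ppara KO, 7.83 and 5.78 in Cpt2 KO, 20.6 and 21.9 in WT and 14.8 and 15.5 in DKO. The remaining high regions were in Setdb2, Osbpl1a and Rhpn2 or nearest to Ankrd55, Xiap (an inhibitor of apoptosis), Slc35e3, Fhit and Selenbp2, with folds from 6.25 to 9.28. Of these 15, all but 3 had an interval of another genotype within 1000 bases; Selenbp2 (chromosome 3, 94718768 to 94719125; folds 7.55 and 6.85) stood farthest, at 22055 bases.

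The regions were rarely at promoters. The middle of 178 (61.4%) lay inside a protein-coding gene body, against 66.1% of all consensus intervals, and 19 (6.55%) lay more than 100000 bases from any, against 4.26%. Of the 277 regions not on chromosome 18, whose starts were not used here, 10 (3.61%) had their middle within 1000 bases of a listed gene start, against 16.9% of all intervals and 27.1% of those called in both Ppara KO libraries. The share was also low in the mirror classes, at 6.17% for WT, 4.27% for Cpt2 KO and 9.68% for DKO. The median distance to such a start was 17751 bases, against 11638 over all intervals. The nearest genes numbered 260: 234 had 1 region, 22 had 2 and 4 had 3, namely Rad51b, Clmn, Klf14 and Slc45a1. The regions were spread over the genome, from 4.31 per 1000 intervals called in both Ppara KO libraries on chromosome X to 17.2 on chromosome 3, leaving aside chromosome Y with 0 of 5. Chromosome 15, which holds Ppara (85734910 to 85806851), had 15 regions, none of them within 1000000 bases of the gene and 2 within 5000000.

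At Clmn the 3 regions were at different places in relation to the gene. The one across its promoter (chromosome 12, 104865250 to 104865811), whose sequence is printed above, had folds of 5.80 and 7.20 in Ppara KO. It began 234 bases from an interval of 22613 bases called in all 8 libraries, at folds of 36.1 and 16.9 in Ppara KO, 42.4 and 39.9 in Cpt2 KO, 34.0 and 52.0 in WT and 22.0 and 37.4 in DKO. Those inside the gene, at 104836275 to 104836559 and 104828382 to 104828679, had 6.76 and 4.71, and 5.95 and 4.92. H3K9ac was called over the promoter region in both WT and Cpt2 KO, so an acetylation mark was present there in livers without an H3K27ac call. The Cpeb3 promoter region (chromosome 19, 37176179 to 37176666) had H3K27ac folds of 8.0 and 6.25 and likewise carried H3K9ac in WT and Cpt2 KO. It lay 87 bases from an interval called in all 8 libraries, with 15.5 and 19.8 in Ppara KO, 17.6 and 13.7 in Cpt2 KO, 13.0 and 21.6 in WT and 24.4 and 24.7 in DKO.

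Klf14, a Krüppel-like transcription factor gene, was the nearest protein-coding gene of 3 regions on chromosome 6, but from 165946 to 196596 bases away. They lay at 31124782 to 31125091 (folds 6.03 and 6.33), 31152891 to 31153165 (5.38 and 4.27) and 31155212 to 31155960 (5.07 and 5.40). Slc45a1, a sugar transporter gene, was nearest to 3 regions on chromosome 4 between 150720619 and 150742543, 69144 to 90080 bases away. Their folds were 5.38 and 4.49, 6.55 and 6.64, and 5.07 and 4.79. At these distances the nearest gene is only a name for the place.

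The gene lists were read against the share of all genes near a region. A region lay within 100000 bases of, and nearest to, 0 of 42 target genes of Ppara in fatty acid metabolism, a list that includes Cpt1a, Pdk4 and Fgf21. Over all 21900 protein-coding genes the share was 1.12% (245 genes), so a count of 0 in a list of this size is near the background and nothing is read from it. It was 3 of 37 genes of lipogenesis and cholesterol synthesis, 1 of 34 of fasting glucose and stress, 2 of 19 of the circadian clock, 3 of 49 of xenobiotic and bile acid metabolism, 2 of 49 of acute phase and inflammation and 2 of 27 of growth and cell cycle. Among cell type markers it was 1 of 22 for hepatocytes and 1 of 14 for endothelium, and 0 for Kupffer cells (of 17), lymphocytes and neutrophils (16), stellate cells and fibroblasts (16) and cholangiocytes (12).

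The genes named from the list of lipogenesis and cholesterol synthesis were Hmgcs1, Acacb and Fdft1. Hmgcs1, the cytosolic HMG-CoA synthase of the cholesterol pathway, had a region before its listed start (chromosome 13, 119688373 to 119689481). Its middle lay 1424 bases from that start, and its folds were 4.86 and 7.91. The neighbour of this region called in all 8 libraries, 792 bases on (119690274 to 119691765), had 18.2 and 16.3 in Ppara KO, 15.8 and 15.3 in Cpt2 KO, 22.2 and 31.0 in WT and 18.4 and 19.6 in DKO, so the shared interval was highest in WT. Acacb, the acetyl-CoA carboxylase whose product restrains fatty acid entry into mitochondria, held a region (chromosome 5, 114148596 to 114149037) with 4.72 and 7.95. Fdft1, squalene synthase, held one (chromosome 14, 63173985 to 63174454) with 5.91 and 6.25.

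In the other lists, the stress gene Ddit3, which encodes the transcription factor CHOP, held a region (chromosome 10, 127291993 to 127292320) at folds of 5.33 and 3.99 and H3K9ac in both WT and Cpt2 KO. The clock repressor genes Bhlhe40 (chromosome 6, 108648275 to 108648524; 12230 bases away) and Ciart (chromosome 3, 95877321 to 95877692; 994 bases away) had 4.91 and 6.75, and 4.60 and 4.85. Near Bhlhe40 the nearest interval called in all 8 libraries (108637913 to 108639294) had 15.8 and 16.0 in Ppara KO, 11.6 and 12.2 in Cpt2 KO, 4.43 and 5.22 in WT and 12.6 and 20.5 in DKO. There WT was the lowest genotype, and DKO spanned the Ppara KO values.

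Genes of steroid and drug metabolism followed. Cyp2c29, a drug-metabolising cytochrome P450, had a region 1049 bases from the gene (chromosome 19, 39285880 to 39286110) with 7.5 and 6.5. Sult1e1, the estrogen sulfotransferase (chromosome 5, 87599552 to 87599821), had 4.67 and 5.33, and Cyp7b1, the oxysterol 7α-hydroxylase (chromosome 3, 18297836 to 18298814, 54435 bases away), 4.75 and 4.86. Cyp2c29 belongs to a cluster of similar genes, and read placement there is uncertain.

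The complement gene C3 held a region (chromosome 17, 57207098 to 57207767) at folds of only 3.88 and 3.97, but its neighbour separated Ppara KO from the other genotypes. That interval, 1716 bases away (57202662 to 57205381), had 17.7 and 15.5 in Ppara KO, 7.73 and 8.97 in Cpt2 KO, 5.85 and 8.53 in WT and 6.84 and 8.97 in DKO. Both Ppara KO livers were above all 6 others with no overlap, at an interval that all livers had. The same was seen at the shared neighbours near Mup21, Selenbp2 and in Clmn (104836653 to 104842285). Other neighbours went the opposite way, with both Ppara KO livers below all 6 others. These were at Tmcc2 (10.75 and 9.0 against 11.3 to 13.9) and in Met (17541400 to 17542817, 6.48 and 7.0 against 7.59 to 12.1). How many of all shared intervals separate like this was not counted, and these neighbours lie beside regions chosen by their Ppara KO calls. Nothing is therefore read from these separations. The chemokine gene Cxcl1 (chromosome 5, 90873573 to 90873812, 17553 bases away) had 4.21 and 5.73. Met, the receptor of hepatocyte growth factor, held a region with 5.28 and 8.82 (chromosome 6, 17540046 to 17540713) and one with 4.80 and 3.83 (17502536 to 17502910). Egfr, the receptor of epidermal growth factor, held one with 6.67 and 3.86 (chromosome 11, 16759053 to 16759347). The 2 regions at cell type markers were near Apob, the apolipoprotein of very-low-density lipoprotein (chromosome 12, 7937198 to 7937603; 4.80 and 6.75), and near the endothelial cadherin gene Cdh5 (chromosome 8, 104097997 to 104098297; 6.10 and 4.25).

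H3K4me1 was not used by the rule. Its peak names carry the same animal-like numbers as those of H3K27ac, so the marks seem to come from the same livers and a difference between livers can show in both. An H3K4me1 peak overlapped 194 and 158 of the 290 regions in the Ppara KO libraries, 100 and 124 in Cpt2 KO, 141 and 127 in WT and 115 and 131 in DKO. As shares this was 60.7% ± 8.78 in Ppara KO, 42.4% ± 3.90 in DKO, 46.2% ± 3.41 in WT and 38.6% ± 5.85 in Cpt2 KO (mean ± SD, n = 2 each). Over all consensus intervals the shares were 50.2% ± 1.88, 49.9% ± 3.74, 49.4% ± 0.253 and 49.9% ± 1.34 in the same order. Both Ppara KO libraries, at 66.9% and 54.5%, were above all 6 others, which ran from 34.5% to 48.6%, and the mean difference was 18.3 percentage points. Without Ppara KO replicate 1 and Cpt2 KO replicate 2 it was 12.1 points, since replicate 2 alone stands for Ppara KO there. In each mirror class, too, the mean share was highest in the genotype of the H3K27ac calls: 85.2% against 32.5% to 55.6% for WT, 59.7% against 22.0% to 30.1% for Cpt2 KO and 29.4% against 8.22% to 17.7% for DKO. Shares over chosen regions were not tested.

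**Figure D4:**
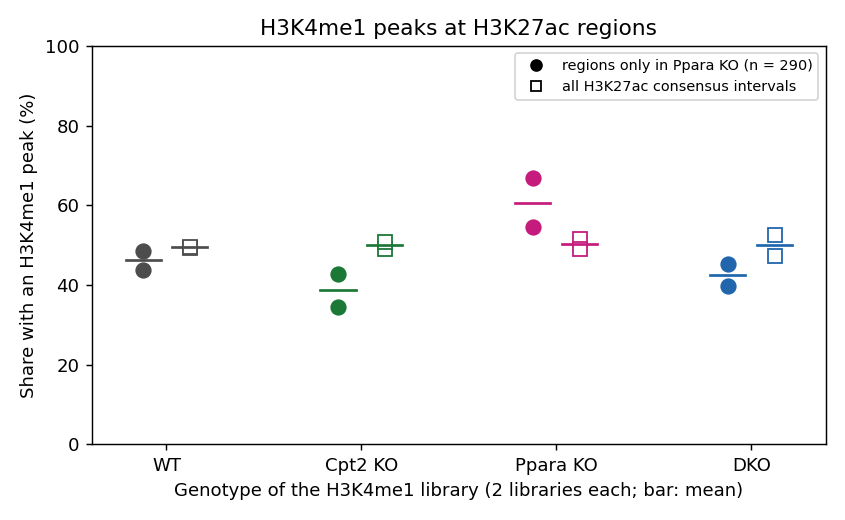
Share of H3K27ac regions overlapped by an H3K4me1 peak (y axis, %) in each H3K4me1 library, by genotype (x axis); filled circles are the 290 regions, open squares all 65776 consensus intervals, and bars the means of 2 libraries. The Ppara KO circles, at 66.9% and 54.5%, lie above those of the other genotypes, which run from 34.5% to 48.6%, while the squares lie close together.

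The difference in H3K4me1 was one of degree, because few regions had it in Ppara KO alone. In 217 regions (74.8%) at least 1 of the 6 other libraries had an H3K4me1 peak, in 32 (11.03%) all 8 libraries had one, and in 50 (17.2%) none did. A peak in both Ppara KO libraries was found at 130 regions (44.8%), in both WT at 107, in both DKO at 95 and in both Cpt2 KO at 62. Only 2 regions (0.690%) had H3K4me1 in both Ppara KO libraries and in none of the 6 others; the same count for the own genotype was 84 of 2167 (3.88%) for the regions only in WT, 110 of 1202 (9.15%) for those only in Cpt2 KO and 51 of 1485 (3.43%) for those only in DKO. They were the Klf14 region at 31155212 to 31155960, with H3K4me1 folds of 4.62 and 6.61, and a region 69202 bases from Aebp2, which encodes a cofactor of the Polycomb repressive complex (chromosome 6, 140747536 to 140747813). The Aebp2 region had H3K27ac folds of 5.99 and 5.85 and H3K4me1 folds of 5.17 and 4.84. Without Ppara KO replicate 1 and Cpt2 KO replicate 2, 7 regions (2.41%) had H3K4me1 in Ppara KO replicate 2 and in none of the 5 others, and 210 (72.4%) had it in at least 1 of those.

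Regions that stood alone gave a different order of genotypes. In the 44 regions more than 1000 bases from an interval of another genotype, a selection made after seeing the data, H3K4me1 was present in 52.3% and 77.3% for Ppara KO, 50% and 59.1% for DKO, 36.4% and 25% for WT and 40.9% and 29.5% for Cpt2 KO. Ppara KO and DKO overlapped there, and both lay above WT and Cpt2 KO. The overlap rests on Ppara KO replicate 1: without it, Ppara KO stood at 77.3% against 50% and 59.1% in DKO. In WT-only regions the WT libraries had H3K4me1 in 84.6% and 85.7%, and Ppara KO replicate 1 (72.3%) and Cpt2 KO replicate 2 (76.8%) were near them while Ppara KO replicate 2 (38.9%) and Cpt2 KO replicate 1 (32.4%) were near DKO (32.1% and 33.0%).

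Where H3K4me1 was present in all 8 libraries, its level was compared with limma across 19526 of 103014 H3K4me1 intervals, with Benjamini-Hochberg adjustment over all of them. At an adjusted p under 0.05, 0 intervals passed in Ppara KO against WT, against DKO or against the mean of the other 3 genotypes (0% of those tested in each), so none of the 85 intervals at 86 of the regions could be called. The other 204 regions were not in the fit, 50 of them with no H3K4me1 interval at all. At an unadjusted p under 0.05, 8.44% of all intervals passed against WT, 4.03% against DKO and 3.74% against the other 3, and 7, 3 and 3 of the 85 did. Higher in Ppara KO at that level were 4.03%, 1.83% and 1.33% of all intervals, and 7, 1 and 2 of the 85. The median log2 difference over the 85 was 0.06, 0.08 and 0.06, against −0.01, −0.01 and 0.00 over all, and 49, 48 and 56 of them were above 0. With 2 livers per genotype the p-values rest on the spread within 4 pairs.

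Leaving out Ppara KO replicate 1 and Cpt2 KO replicate 2 together was an alternative chosen after seeing the data. It left 1 Ppara KO and 1 Cpt2 KO library, so the spread came from the WT and DKO pairs alone. The Ppara KO mean was then a single liver, and only effect sizes are given. The median log2 difference from WT was 0.14 over the 92 intervals at regions, against −0.02 over all 21131. An interval in Epb41l4b (chromosome 4, 57063844 to 57065628) had a log2 difference from WT of 1.35. Its folds were 4.89 and 13.7 in Ppara KO, 10.7 and 3.36 in Cpt2 KO, 9.77 and 10.9 in DKO and 6.22 and 4.45 in WT. The 2 libraries left out had values near WT and their replicates values near DKO, so this difference rests on which libraries are used.

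**Figure D5:**
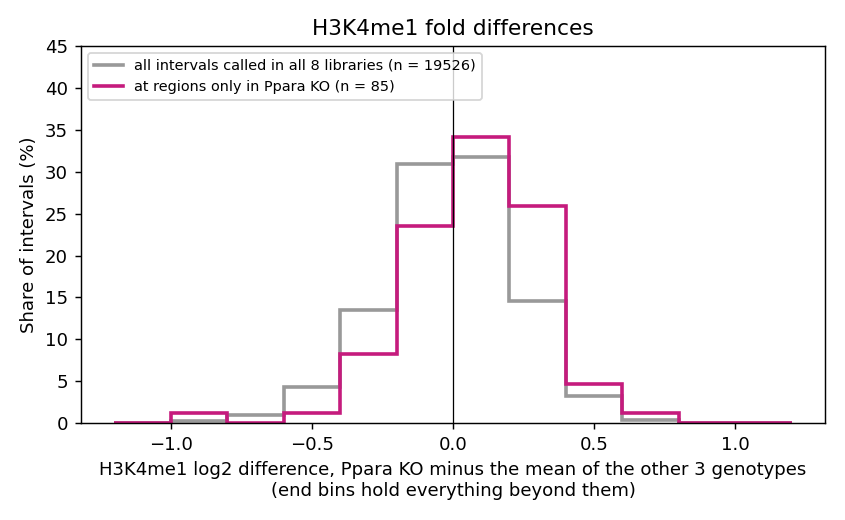
Share of H3K4me1 intervals (y axis, %) by log2 difference of centred folds, Ppara KO minus the mean of the other 3 genotypes (x axis), for all 19526 intervals called in all 8 libraries and for the 85 at the regions. The curve of the 85 is shifted slightly to the right, with a median of 0.06 against 0.00, and stays within the range of the whole.

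None of the individual intervals with the smallest p passed the adjustment. In Adora1, the adenosine A1 receptor gene (chromosome 1, 134216762 to 134225132), H3K4me1 folds were 15.8 and 16.3 in Ppara KO, 14.7 and 15.5 in Cpt2 KO, 8.50 and 10.0 in WT and 15.2 and 14.8 in DKO (log2 difference from WT 0.78, SE 0.23, limma adjusted p = 0.472). All 6 mutant livers were above both WT livers there. Against WT the next were intervals in Man1a, Colq, Syne3 and Fggy, with log2 differences from 0.70 to 0.88 and limma adjusted p from 0.528 to 0.550. Fggy, a carbohydrate kinase gene (chromosome 4, 95738359 to 95739697), had 7.35 and 9.35 in Ppara KO, 5.0 and 4.71 in Cpt2 KO, 3.00 and 6.70 in WT and 5.55 and 5.07 in DKO. Its Ppara KO livers were above all 6 others, and it was among the 5 smallest p in each of the 3 comparisons (0.88, 0.63 and 0.76 on the log2 scale). The 3 comparisons share the same Ppara KO livers and Fggy was named for its small p, so neither is separate support.

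The largest difference from DKO was a lower level. In Psd3 (chromosome 8, 68010410 to 68012916), H3K4me1 was 5.92 and 8.08 in Ppara KO, 13.1 and 18.6 in DKO, 16.7 and 13.9 in Cpt2 KO and 12.4 and 5.0 in WT (log2 difference from DKO −1.19, SE 0.35, limma adjusted p = 0.980). Both Ppara KO livers were below both DKO livers at this place, which had an H3K27ac call in Ppara KO alone, and the WT livers ran from 5.0 to 12.4. Sc5d, of cholesterol synthesis, and Clip2 also had lower values than in DKO (−0.66 and −0.62), and Car5a, a mitochondrial carbonic anhydrase gene, a higher one (0.67), none of them called. Against the other 3 genotypes, the interval at Clmn (chromosome 12, 104832950 to 104842206) had 13.2 and 13.9 in Ppara KO, 9.55 and 8.91 in Cpt2 KO, 10.3 and 10.1 in WT and 9.17 and 10.5 in DKO (0.47, SE 0.20, limma adjusted p = 1.00). Both Ppara KO livers were above the rest there, in a narrow spread, at an interval named for its small p. Pml (−0.54) and 9130023H24Rik (0.53) completed the 5.

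Effect sizes at these intervals were also read without Ppara KO replicate 1 and Cpt2 KO replicate 2, where 1 liver stands for Ppara KO. The log2 difference from WT was then 0.78 in Adora1, 0.91 in Man1a, 1.02 in Colq, 0.77 in Syne3 and 1.02 in Fggy. In Psd3 the difference from DKO was −0.97, and in Clmn that from the other 3 genotypes was 0.48. Every one of these kept its sign, but they had been chosen for small p in a fit that included the libraries kept here.

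H3K9ac, from 1 WT and 1 Cpt2 KO liver and none lacking Ppara, was seldom found at the regions. It overlapped 29 of 290 in WT (10.0%, 95% exact binomial interval 6.80 to 14.0) and 30 in Cpt2 KO (10.3%, 7.09 to 14.4), and 45 (15.5%) in either. These intervals cover counting error only. Over all consensus intervals the shares were 34.5% and 34.6%. The regions only in WT had 40.7% and 33.1%, those only in Cpt2 KO 3.66% and 7.15%, and those only in DKO 5.86% and 8.15%. The regions thus lay below the share of all intervals in both livers, and nearer to the classes of Cpt2 KO and DKO than to that of WT.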

How the data were processed

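Per the submitters' processing notes, BWA and MACS2 2.1.0 were used with mm10; per the file headers and peak names, peaks were called for each library, and 1 list (H3K27ac, Ppara KO replicate 2) carries another build word and was used as mm10. The authors deposited for each peak its position, a fold enrichment (a ratio of ChIP over input) and a −log10 q. Consensus and H3K9ac intervals were deposited as positions with no values. The caller's threshold is not given in the sources used here.

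The highest peak overlapping an interval by at least 1 base gave its fold. Genes are the nearest of 21900 protein-coding bodies (RefSeq, GRCm38.p6, no strand), from the middle of an interval. Gaps run between edges. H3K4me1 log2 folds, centred per library, were compared with limma 3.58.1 in R 4.3.3, 8 libraries in 1 fit of 4 genotype means; the fit was tested on simulated data. All else used Python 3.11.15 and no test. Depth is unknown and limits the precision of every call. Named are the 15 regions of highest mean log2 fold, genes with 3 or more regions, regions at listed genes, regions with H3K4me1 in both Ppara KO libraries only, the 5 H3K4me1 intervals of smallest p in each comparison, and the 3 intervals just inside and outside the rule; others were chosen after their values were seen. Members and lists were chosen with earlier results of these data known. The labels do not say how livers relate, so p-values measure the spread between these samples. Animal-like numbers in the peak names form 1 series for livers with Ppara and another for livers without, so series and genotype cannot be told apart. Alternatives (overlap, q, scaling, width, left-out libraries, replicate block) are in the closing section. Input samples and an H3K9ac comparison between genotypes were left out, the latter having 1 library each.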

Additional observations from a re-analysis of the deposited data

Results flagged for a closer look

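The H3K4me1 interval in Car5a (chromosome 8, 121932092 to 121935015) had differences of opposite sign on loss of Ppara with and without Cpt2. Its log2 fold was higher in Ppara KO than in WT by 0.449 (8.0 and 5.67 against 4.46 and 5.46) and differed by −0.70 in DKO from Cpt2 KO (3.24 and 5.43 against 6.38 and 7.26), with each library of a mutant on the same side of its controls. Both values come from folds that were not centred. With folds centred per library, the difference of Ppara KO from WT was 0.44 (SE 0.31, limma adjusted p = 0.693). The difference between the effects with and without Cpt2 was not tested. The higher level in Ppara KO rested mainly on replicate 1 (8.0), which stood with WT in smallest peak width. Replicate 2, at 5.67, was close to the higher WT liver, at 5.46. The interval was flagged for this separation among intervals already named for small p. How many of all intervals separate like this was not counted.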

How the results depend on the processing

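The number of regions was 290 with an overlap of at least 50% (the same 290), 204 with a minimum −log10 q of 10 in all 8 libraries (126 of them among the 290), and 126 with that minimum in the Ppara KO libraries only. The overlap setting also left every limma count and median as it was, so it is no separate check of these results. Leaving out 1 library gave 306 to 2396, with 446 without WT replicate 1, 1149 without Ppara KO replicate 1 and 2396 without Ppara KO replicate 2, since a rule with fewer libraries is looser by construction. The H3K4me1 share difference of 18.3 points became 24.6 in regions more than 1000 bases from an interval of another genotype and 12.1 without Ppara KO replicate 1 and Cpt2 KO replicate 2; leaving out 1 library gave 12.1 (without Ppara KO replicate 1) to 24.5 (without Ppara KO replicate 2). At neighbouring intervals the median differences from WT, DKO and the other 3 genotypes were 0.31, 0.17 and 0.25 within 10000 bases, 0.0779, 0.0386 and 0.0684 within 200000, and 0.37, 0.15 and 0.31 with an edge within 1000 bases. Leaving out 1 library gave 0.15 to 0.25, 0.096 to 0.12 and 0.15 to 0.20; the cause of these shifts was not tested. H3K4me1 calls against WT were 0 to 3 with 1 library left out (3 without either Cpt2 KO replicate, none at a region) and 393 without Ppara KO replicate 1 and Cpt2 KO replicate 2, and 0 against DKO and the other 3 genotypes in every setting. With the replicate block 0 passed in the 3 comparisons (1353, 647 and 585 at an unadjusted p under 0.05). Differences between replicates correlated at −0.489 between Cpt2 KO and Ppara KO, and at −0.069 to 0.101 between other genotypes. Ppara KO replicate 1 thus went with Cpt2 KO replicate 2, as in smallest peak width, and against the replicate numbers. The 15 named H3K4me1 comparisons kept their sign in all 236 combinations of comparison and alternative that gave a value. They were chosen for small p in these same libraries, so the kept sign is no separate check. There were 16 alternatives, of which the overlap setting left the fit as it was. Those in Man1a and Fggy gave no value with a minimum −log10 q of 10. Depth in reads is unknown, so a missing call cannot be told from low depth.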

Other observations

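The 14 regions more than 10000 bases from an H3K27ac interval of another genotype, looked at after their values were seen, included pairs in gene-poor stretches. Those nearest to Adgrl2, a latrophilin gene (chromosome 3, 149920472 to 149920768 and 149934546 to 149935540), lay 931524 and 945947 bases from it and 255527 and 269601 bases from the next interval of another genotype, with H3K27ac folds of 6.13 and 7.23 in the former and 5.64 and 6.85 in the latter. H3K4me1 at the former was called in Ppara KO replicate 2 (5.96), Cpt2 KO replicate 1 (5.01) and both DKO libraries (6.02 and 8.0), and at the latter in Ppara KO replicate 2 (6.39), Cpt2 KO replicate 1 (6.27) and DKO replicate 1 (6.00). Neither was called in WT or in Ppara KO replicate 1 and Cpt2 KO replicate 2. Those nearest to Pik3r1, the regulatory subunit of phosphoinositide 3-kinase (chromosome 13, 101968098 to 101968458 and 101980462 to 101981006), lay 200061 and 212517 bases from it, with folds of 4.65 and 6.28 and of 4.67 and 7.41. A region 138309 bases from Myc (chromosome 15, 62128505 to 62128836) had 5.25 and 3.50 and H3K4me1 in 7 of 8 libraries.

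A region inside Ubac2 (chromosome 14, 121893643 to 121893904; folds 6.72 and 6.78) had H3K4me1 in all 8 libraries, from 7.34 to 11.1, so the site carried that mark where no H3K27ac was called. By contrast the region nearest to Tbc1d5 (chromosome 17, 51367442 to 51367976; 6.10 and 6.85) had no H3K4me1 peak in any library and lay 145838 bases from an H3K27ac interval of another genotype. The highest fold in Ppara KO replicate 2 was at Ak3, an adenylate kinase gene of mitochondria, at 9.42 beside 4.71 in replicate 1.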
